A study of Sus scrofa with 32 samples.

Results

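The calpains are calcium-dependent cysteine proteases of the cytosol. The set examined was CAPN1, CAPN2 and CAPN3, chosen by name together with CAST, which encodes the calpastatin inhibitor, and not by their measured values. An Ensembl ID was paired with the name for 3 of the 4 genes, so the results concern 3 of the 25322 gene IDs in the gene table and the 4 isoform IDs matched to them among 30585. CAST was not analysed here. The isoform IDs were matched by counts that equal or add up to the count of the gene in all 32 libraries. CAPN1 (ENSSSCG00000012999) and CAPN2 (ENSSSCG00000029411) were each matched to 1 isoform ID, ENSSSCT00000014210 and ENSSSCT00000022751. CAPN3 (ENSSSCG00000004728) was matched to 2, ENSSSCT00000005221 and ENSSSCT00000005224. An isoform without counts could not be found in this way.

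RNA was sequenced from longissimus dorsi (LD), a loin muscle, and semimembranosus (S), a ham muscle, of gilts of 2 breeds, Pulawska (PUL, 8 pigs) and Polish Landrace (PL, 8 pigs). Each pig gave 1 library of each muscle, and the 4 groups of 8 are called PUL LD, PL LD, PUL S and PL S. The labels give every pig as a female of 180 days, but the study slaughtered the pigs at a set body weight, so their true ages may differ between the breeds and were not used here. The pigs had no experimental treatment and were unrelated, born on different farms, and kept and fed alike at 1 test station. The muscle was taken shortly after slaughter, before any ageing of the meat, and the labels attach a high shear force to PUL and a low one to PL, which is the reverse of how the study describes the meat, so the groups are named by breed alone.

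CAPN1 encodes the large subunit of mu-calpain and CAPN2 that of m-calpain, and each pairs with the small regulatory subunit encoded by CAPNS1. CAPN3 encodes p94, a calpain found mainly in skeletal muscle that is held on titin in the sarcomere, and its loss causes a limb-girdle muscular dystrophy in humans. In meat, calpains are known for cleaving desmin, nebulin, titin and other proteins of the myofibril after death, which is part of tenderization, and calpastatin blocks CAPN1 and CAPN2 but not CAPN3.

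Summed counts ranged from 8821273 to 24761853 per library (median 15529948). Behind the values given here lay between 610 and 2390 counts of CAPN1 per library, between 746 and 2326 of CAPN2 and between 5680 and 22417 of CAPN3. Levels are given as CPM, counts scaled to a common library size with TMM factors, which correct for a few abundant genes taking up reads, and they are not corrected for gene length, so levels of different genes are not compared. Of 6 skeletal muscle markers 4 had an ID, and their summed level lay between 43240 and 222300 CPM in every library. The libraries of PUL pigs 1 to 5 stood apart in RNA of the liver type: ALB, which encodes serum albumin, was between 7.66 and 918.0 CPM in these 10 libraries and between 0 and 4.27 CPM in the other 22. The breed values are therefore also given without these 5 pigs, which leaves 3 PUL pigs.

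None of the 3 calpain genes passed the threshold in any of the 5 comparisons, namely PL against PUL in LD and in S, S against LD in PUL and in PL, and the interaction of breed and muscle. The threshold was an adjusted p of at most 0.05 and a fold of at least 1.3 (edgeR's quasi-likelihood test, Benjamini-Hochberg adjustment over all genes tested). Over all genes the share that passed was 0% of 10792 in LD and 0% of 10687 in S between the breeds, 0.0259% of 11563 between the muscles of PUL, and 0% of 11563 both between the muscles of PL and for the interaction. DESeq2, run as an alternative, passed 19, 103, 79, 4 and 1 genes in these comparisons, none of them a calpain of the set. At an unadjusted p under 0.05, edgeR gave CAPN2 in LD and CAPN3 in S between the breeds, beside 7.15% and 11.7% of all genes, and no calpain in the other 3 comparisons, where 6.56%, 2.29% and 2.54% of all genes had such a p. CAPN3 had lower fitted values in PL than in PUL in both muscles, CAPN2 higher ones, and CAPN1 differed least from its own spread.

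**Figure D1:**
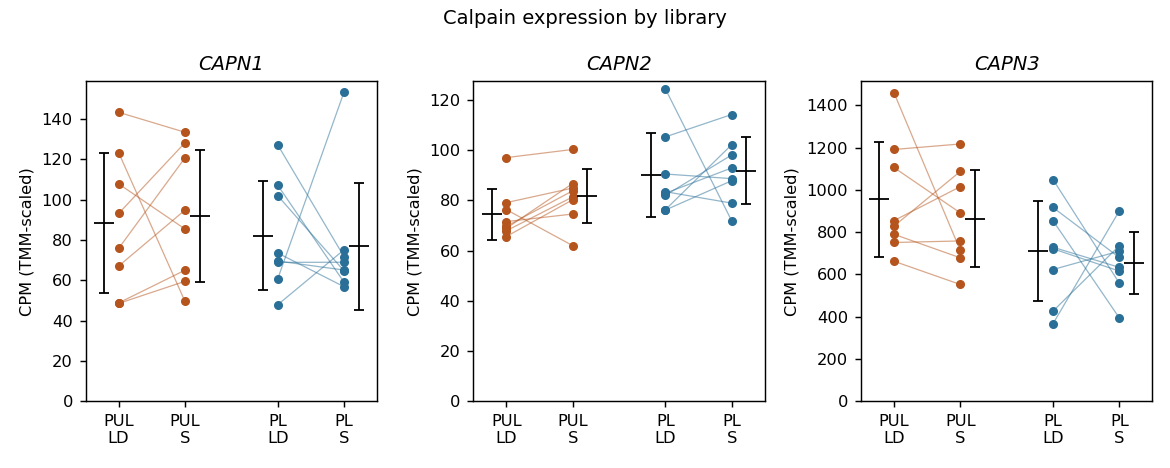
Level of each calpain gene in CPM (vertical axis from 0) for every library of the 4 groups, with a thin line joining LD and S of the same pig, and the mean ± SD (n = 8) as black bars. CAPN1 spreads from 48.6 to 143.4 CPM within PUL LD alone, CAPN2 lies between 61.98 and 124.3 CPM in all libraries, and the CAPN3 means of PUL (955.6 and 864.4 CPM) stand above those of PL (711.1 and 653.9 CPM) with overlapping points.

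CAPN3, the muscle calpain, ranged in PUL LD from 662.9 to 1460 CPM with a median of 841.5. In PL LD it ranged from 367.3 to 1049 CPM with a median of 725.2. The groups overlapped, with 3 PUL pigs above every PL pig, 3 PL pigs below every PUL pig, and 7 of 8 PUL pigs above the median of PL. Mean levels were 955.6 ± 271.0 CPM for PUL against 711.1 ± 234.3 CPM for PL (SD, n = 8), and the log2 fold change of PL over PUL was -0.43 (SE 0.22). The fold was 0.741 with a 95% interval from 0.538 to 1.02, and the adjusted p was 0.718 by edgeR.

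In S the same order of breeds was seen for CAPN3. PUL S ranged from 553.0 to 1217 CPM (median 825.0) and PL S from 394.9 to 900.6 CPM (median 657.1). Again 3 PUL pigs lay above every PL pig, 1 PL pig lay below every PUL pig, and 7 of 8 PUL pigs lay above the median of PL. The means were 864.4 ± 227.3 CPM and 653.9 ± 146.0 CPM (SD, n = 8). The log2 fold change was -0.40 (SE 0.18), a fold of 0.759 with a 95% interval from 0.587 to 0.981, with an unadjusted p under 0.05 and an adjusted p of 0.397 by edgeR. The LD and S libraries come from the same 16 pigs and are not independent of each other. Without PUL pigs 1 to 5, the log2 fold change was -0.31 in LD and -0.25 in S. With library size alone in place of TMM factors, it was -0.62 in LD (adjusted p = 0.288 by edgeR) and -0.35 in S.

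The order of the CAPN3 levels was PUL LD, PUL S, PL LD and PL S, and no neighbours in this order differed beyond the spread between pigs. S over LD gave a log2 fold change of -0.14 (SE 0.22) in PUL and -0.08 (SE 0.23) in PL. CAPN3 was higher in S than in LD of the same pig in 4 of 8 PUL pigs and in 3 of 8 PL pigs, and the differences within a pig ran from -1.11 to 1.29 on the log2 scale. The interaction, the S over LD change in PL minus that in PUL, was 0.06 (SE 0.32), so the breed difference was of like size in both muscles within a wide error.

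CAPN2, the large subunit of m-calpain, was the steadiest of the 3 genes. It ranged in PUL LD from 65.6 to 96.96 CPM (median 70.6) and in PL LD from 76.1 to 124.3 CPM (median 83.1). In LD 5 of 8 PUL pigs lay below every PL pig and 2 PL pigs lay above every PUL pig, while the remaining pigs overlapped. Mean levels were 74.5 ± 10.1 CPM for PUL against 90.1 ± 16.7 CPM for PL (SD, n = 8). The log2 fold change of PL over PUL was 0.28 (SE 0.13), a fold of 1.21 with a 95% interval from 1.005 to 1.46, with an unadjusted p under 0.05 and an adjusted p of 0.691 by edgeR. This fold is also under the minimum of 1.3.

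In PUL S, CAPN2 lay between 61.98 and 100.2 CPM (median 82.5), and in PL S between 71.8 and 114.1 CPM (median 90.7). The breeds overlapped more than in LD, with 1 PUL pig below every PL pig and 2 PL pigs above every PUL pig. The means were 81.7 ± 10.9 CPM and 91.8 ± 13.3 CPM (SD, n = 8), and the log2 fold change was 0.17 (SE 0.12, adjusted p = 0.56 by edgeR). The CAPN2 difference depended on the libraries and the scaling. Without PUL pigs 1 to 5 it was 0.14 in LD and 0.03 in S. With library size alone it was smaller in LD, at 0.09, and larger in S, at 0.23.

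Genes of fibroblasts, a cell type of the connective tissue in which m-calpain is also known, moved the same way as CAPN2. Of 7 fibroblast markers 6 had an ID and 5 were tested, and all 5 had a log2 fold change above 0 for PL over PUL in both muscles, with a median of 1.297 in LD and 1.09 in S beside 0.0052 and 0.02 over all genes tested. None of the 5 passed the threshold, while 4 in LD and 2 in S had an unadjusted p under 0.05. Their summed level ranged from 270.6 to 2479 CPM in PUL LD (median 516.9), from 571.2 to 5942 in PL LD (median 1328), from 121.0 to 2299 in PUL S (median 1042) and from 1153 to 5632 in PL S (median 2085). Red blood cell markers, 3 of 6 with an ID, had median summed levels of 140.3 and 376.9 CPM in PUL LD and PL LD and of 67.1 and 365.9 CPM in PUL S and PL S. Nearly all of this sum was HBB, with a mean of 281.7 CPM over 32 libraries, beside 3.65 for SLC4A1 and 2.91 for ALAS2. PL over PUL was above 0 for these genes in both muscles, except SLC4A1 in LD, which gave -0.38. The part of these cells in the calpain values was not tested. In such bulk samples, fewer cells of a type and less RNA per cell cannot be told apart.

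By muscle, the CAPN2 levels were in the order PL S, PL LD, PUL S and PUL LD, and no neighbours differed beyond their spread. CAPN2 was higher in S than in LD in 7 of 8 PUL pigs and in 5 of 8 PL pigs. The log2 fold change of S over LD was 0.13 (SE 0.12) in PUL and 0.04 (SE 0.12) in PL, and the interaction was -0.10 (SE 0.17). The small errors bound these differences more closely than those of the other calpains: the 95% interval of S over LD ran from -0.11 to 0.38 in PUL and from -0.21 to 0.28 in PL on the log2 scale.

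CAPN1, the large subunit of mu-calpain, ranged in PUL LD from 48.6 to 143.4 CPM (median 84.5) and in PL LD from 47.97 to 127.2 CPM (median 71.6). In PUL S it lay between 49.6 and 133.5 CPM (median 90.2), and in PL S between 56.9 and 153.5 CPM (median 67.1). Almost the whole range was shared by the breeds in LD, where 1 PUL pig lay above every PL pig and 1 PL pig below every PUL pig. In PL S, 7 libraries lay between 56.9 and 75.2 CPM and that of pig 14 lay far above them at 153.5 CPM.

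The order of the CAPN1 means was PUL S at 92.2 ± 32.7 CPM, PUL LD at 88.5 ± 34.7, PL LD at 82.2 ± 26.9 and PL S at 76.9 ± 31.5 (SD, n = 8), and each SD exceeded the gap to the next mean. PL over PUL gave a log2 fold change of -0.11 (SE 0.24, adjusted p = 0.979) in LD and -0.26 (SE 0.23, adjusted p = 0.674) in S by edgeR. Without PL pig 14 the value in S was -0.47, with an adjusted p of 0.246 by edgeR. S over LD gave 0.08 (SE 0.23) in PUL, where 5 of 8 pigs were higher in S, and -0.11 (SE 0.24) in PL, where 3 of 8 were. The interaction was -0.20 (SE 0.33). The direction of these muscle values turned with library size alone, to -0.04 in PUL, 0.01 in PL and 0.05 for the interaction.

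**Figure D2:**
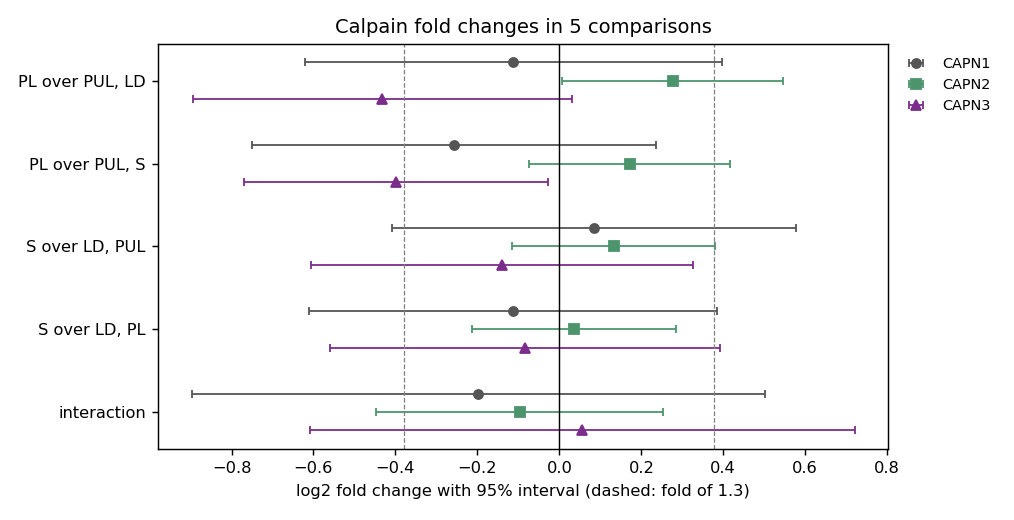
Log2 fold change (horizontal axis) of CAPN1 (circles), CAPN2 (squares) and CAPN3 (triangles) in the 5 comparisons, with 95% intervals as bars and dashed lines at a fold of 1.3 in each direction. The intervals of CAPN2 in LD (from 0.01 to 0.55) and of CAPN3 in S (from -0.77 to -0.03) do not reach 0, the others do, and none of the values passed after adjustment.

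CAPN2 and CAPN3 thus had breed values of opposite sign, and the ratio of their counts within a library, which needs no scaling factor, was compared next. These ratios between calpain genes were chosen after the values of the genes had been seen, in place of ratios to CAST, and 25 tests of them were made. A difference of such log2 ratios between groups does not depend on gene length, whereas the ratio itself does. In PUL LD the log2 CAPN3:CAPN2 ratio had a lowest value of 2.95, a median of 3.62 and a highest value of 4.26. In PL LD it ran from 1.80 to 3.59 with a median of 3.04. In LD the ratio of 5 PUL pigs exceeded that of every PL pig, and 3 PL pigs fell below every PUL pig.

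The breeds also overlapped in the CAPN3:CAPN2 ratio in S. In PUL S it lay between 2.79 and 4.03 (median 3.47) and in PL S between 2.32 and 2.98 (median 2.85), and 6 of the 8 PUL pigs exceeded the highest PL pig, while 2 PL pigs fell below every PUL pig. PL minus PUL was -0.72 (SE 0.25) in LD and -0.56 (SE 0.17) in S on the log2 scale. An exact permutation test, two-sided, gave p = 0.00917 in LD and p = 0.0073 in S, and both had an adjusted p of 0.0764 over the 25 tests, which misses 0.05. Leaving out 1 pig at a time gave adjusted values between 0.0622 and 0.153 in LD and between 0.0466 and 0.153 in S by exact permutation, the lowest being without PUL pig 1. Without PUL pigs 1 to 5 the difference was -0.50 in LD and -0.30 in S. The exact permutation test then gave adjusted values of 0.938 and 0.606. With 3 PUL pigs left it has few orders of the labels, so these values cannot tell whether the difference remained.

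The other ratios differed less. The CAPN3:CAPN1 ratio was lower in PL by 0.38 on the log2 scale in LD (SE 0.16, exact permutation p = 0.0274, adjusted p = 0.171), and in S its difference was -0.14 (SE 0.21). The CAPN1:CAPN2 ratio differed by -0.34 (SE 0.27) in LD and by -0.42 (SE 0.20) in S (exact permutation p = 0.0544, adjusted p = 0.26). CAPN2 over the small subunit CAPNS1 was higher in S than in LD in all 8 PL pigs, by 0.23 on average (SE 0.11), with p = 0.00781 by exact permutation of signs, the smallest that 8 pigs can give, and an adjusted p of 0.0764. Without PL pig 14 this difference was 0.13. In PUL the corresponding difference was 0.05 (SE 0.17), and the difference between the breeds was 0.18 (SE 0.20, exact permutation p = 0.375, adjusted p = 0.852).

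**Figure D3:**
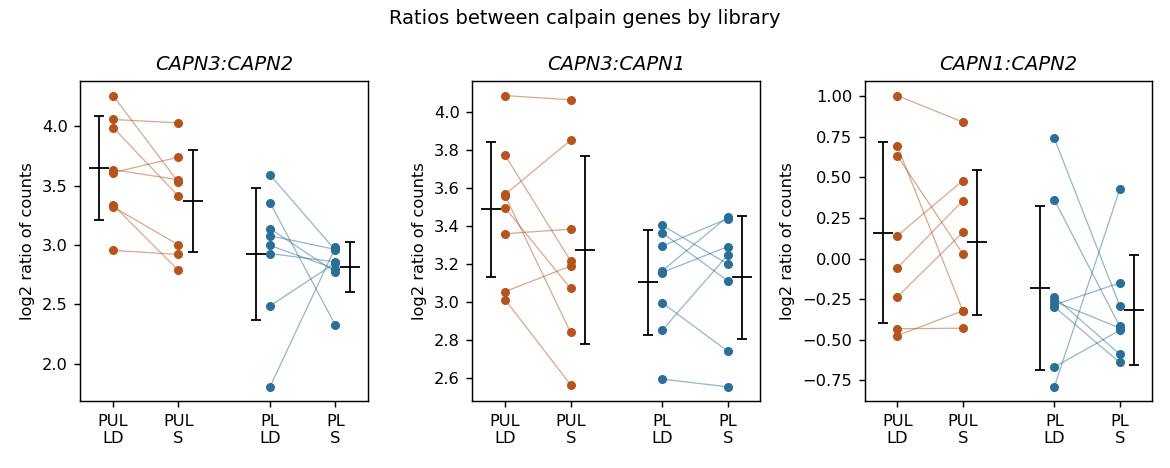
Log2 ratio of the counts of 2 calpain genes in every library (vertical axis) for the 4 groups, with lines joining LD and S of a pig and the mean ± SD (n = 8) in black. In the CAPN3:CAPN2 panel the means are 3.65 and 3.37 in PUL LD and PUL S and 2.92 and 2.81 in PL LD and PL S, while the breeds overlap widely in the CAPN1:CAPN2 panel.

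The CAPN3 counts were divided between its isoforms very unevenly from library to library. On average ENSSSCT00000005221 took 62.0% of them and ENSSSCT00000005224 took 38.0%, but the share of the former ran from 11.95% in LD of PUL pig 13 to 100% in LD of PL pig 12 and in S of PL pig 14, where the latter was listed at 0 counts. These are RSEM's estimates for transcripts that can share reads, and how much of this spread comes from the estimate was not tested.

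By group, the share of ENSSSCT00000005221 was 64.4% ± 29.2 in PUL LD, 64.1% ± 22.7 in PL LD, 55.7% ± 17.4 in PUL S and 64.0% ± 20.4 in PL S (SD, n = 8). PL minus PUL was -0.29 percentage points in LD (SE 13.1) and 8.34 in S (SE 9.47). S minus LD was -8.66 points in PUL (SE 7.57), where 5 of 8 pigs were lower in S, and -0.04 points in PL, with a larger error, where 4 of 8 were. Over these comparisons and the interaction, 5 in all, the exact permutation tests gave adjusted values of 0.853 or higher. Between LD and S of the same pig the share had a Pearson r of 0.40 over 16 pigs, after the breed means were removed.

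Tested one by one, the isoforms gave no more calls than the genes, beside 0% of 11534 isoforms in LD and 0% of 11413 in S. For ENSSSCT00000005221 the log2 fold change of PL over PUL was -0.49 (SE 0.46) in LD and -0.25 (SE 0.33) in S. For ENSSSCT00000005224 it was -0.30 (SE 0.76) in LD and -0.63 (SE 0.65) in S. The errors of the CAPN3 isoforms were larger than that of the whole gene in both muscles. The single matched isoforms of CAPN1 and CAPN2 gave -0.11 and 0.28 in LD and -0.25 and 0.18 in S. These are close to their genes, whose counts they equal by the matching. Between the muscles 0% of 12584 isoforms passed in PUL, in PL and for the interaction, and none of the 4 calpain isoforms did. At an unadjusted p under 0.05 stood the isoform of CAPN2 between the breeds in LD and no other calpain isoform in any comparison, beside 6.55% and 10.7% of isoforms between the breeds in LD and S, 5.76% and 2.14% between the muscles of PUL and PL, and 2.5% for the interaction.

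**Figure D4:**
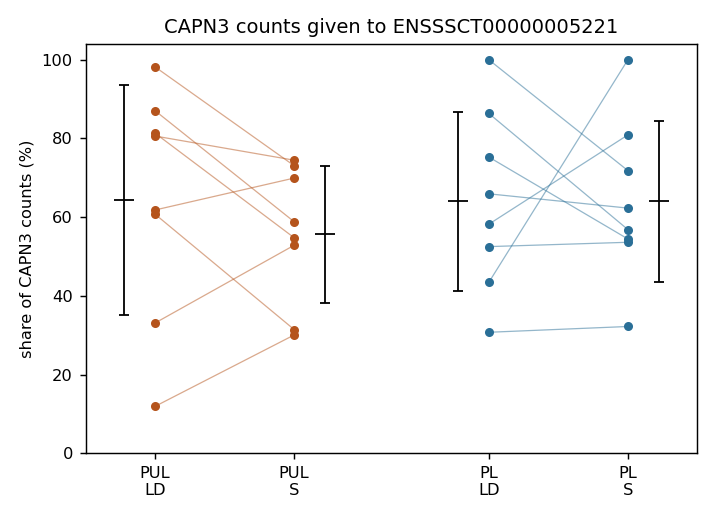
Share of the CAPN3 counts that RSEM gave to ENSSSCT00000005221, in percent (vertical axis), for every library of the 4 groups, with lines joining LD and S of a pig and the mean ± SD (n = 8) in black. Shares run from 11.95% to 100%, and the group means lie between 55.7% and 64.4%.

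The calpains differed in how much they varied between pigs of a group. The pooled SD of log2(CPM + 0.5) within groups was 0.513 for CAPN1, 0.209 for CAPN2 and 0.417 for CAPN3. Among genes within 2-fold of its own level, CAPN2 was at the 7.66th percentile of this SD, CAPN1 at the 79.4th and CAPN3 at the 59.6th, the median SD of these genes being 0.353, 0.353 and 0.374. CAPN2 was thus steadier than most genes of its level and CAPN1 more variable. The level in LD of a pig said little of its level in S: Pearson r over 16 pigs, with breed means removed, was 0.05 for CAPN1, -0.01 for CAPN2 and -0.22 for CAPN3.

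Across the 32 libraries, with group means removed, CAPN1 and CAPN3 varied together, with a Pearson r of 0.70 and a Spearman rho of 0.70, and r was 0.68 without the 2 libraries farthest from the median. For CAPN1 with CAPN2, r was 0.42 and rho 0.38, and for CAPN2 with CAPN3, r was 0.20 and rho 0.20. CAPN1 and CAPN2 had an r of -0.25 and 0.28 with the small subunit CAPNS1, and without the 2 farthest libraries these were -0.02 and 0.06. These points come in pairs from 16 pigs and share the library, its depth and its scaling, so the values are descriptions.

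By the same measure over 7900 genes with a symbol, the genes most like CAPN1 were ATP2A1, which encodes the calcium pump of the sarcoplasmic reticulum in fast fibres (r = 0.93), CDC37, a co-chaperone of HSP90 (r = 0.91), and SEMA4D, a semaphorin (r = 0.90). Those most like CAPN3 were CRKL, a signalling adaptor (r = 0.89), and USP24 (r = 0.89) and USP19 (r = 0.87), which encode ubiquitin-specific proteases. For CAPN2 they were WNT9A, a Wnt ligand (r = 0.77), NOC4L, a nucleolar protein (r = 0.74), and UNC45A, a myosin chaperone (r = 0.74). An r of 0.809, 0.781 and 0.617 was reached by 1% of the genes for CAPN1, CAPN3 and CAPN2, and the median r was near 0 for each.

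Of 13 other genes of the calpain family 10 had an ID and 5 were tested, and none passed the threshold in any comparison. CAPNS1 (ENSSSCG00000030149), the small subunit shared by mu-calpain and m-calpain, was 39.0 ± 8.49 CPM in PUL LD, 44.4 ± 12.7 in PL LD, 42.1 ± 13.3 in PUL S and 37.8 ± 5.04 in PL S (SD, n = 8). Its log2 fold change of PL over PUL was 0.19 in LD and -0.15 in S, so its sign differed between the muscles.

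CAPN5, CAPN6 and CAPN7 were at group means between 3.87 and 7.14 CPM. Their log2 fold changes of PL over PUL lay between -0.30 and 0.30. CAPN15 was at 5.61 ± 1.73 CPM in PUL LD and 3.61 ± 1.84 in PL LD, and at 5.13 ± 1.62 in PUL S and 3.46 ± 1.19 in PL S (SD, n = 8). PL over PUL was -0.63 in LD (adjusted p = 0.698) and -0.57 in S (adjusted p = 0.382) by edgeR, the same sign as CAPN3. CAPN9, CAPN11 and CAPN12 did not exceed 0.133 CPM in any library, and CAPN13 and CAPN14 had no counts.

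Proteins that calpains cleave in the myofibre and its cytoskeleton were covered by 15 genes, of which 12 had an ID and were tested, and none passed in any comparison. Between the breeds 10 of 12 were lower in PL in LD (median log2 fold change -0.17) and 5 of 12 in S (median 0.07), all short of the threshold. MYBPC2, a myosin-binding protein of fast fibres, gave -0.10 in LD and -0.17 in S, NEB, the giant nebulin, gave 0.03 and 0.05, and TNNT1, the slow troponin T, gave -0.26 and -0.12. DES, which encodes desmin, gave -0.21 in LD and -0.70 in S (adjusted p = 0.302 by edgeR). ANKRD1, a stress-responsive protein of the titin filament, stood out between the muscles of PUL, with S over LD at -1.998 (adjusted p = 0.279 by edgeR), and was named after its value was seen.

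Among proteases of other families, 8 of 12 cathepsins, the proteases of the lysosome, and 5 of 9 caspases, the proteases of cell death, were tested, and none passed. CTSD, a cathepsin gene that the study reported as higher in PUL, had no ID paired with its name and was not tested. In LD 6 of 8 cathepsins were higher in PL (median log2 fold change 0.59), and in S 3 of 8 were (median -0.15). CTSB gave 0.34 and -0.15 for PL over PUL in LD and S, CTSC gave -0.13 and -0.61, CTSH gave 0.97 and 0.33, and CTSS gave 0.84 and 0.20. The caspases had medians of 0.29 and 0.07. CSTB, the 1 tested gene of 3 cystatins, which inhibit cathepsins, gave 0.60 in LD and -0.05 in S. CST6, which the study also reported as higher in PUL, was not in the list.

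**Figure D5:**
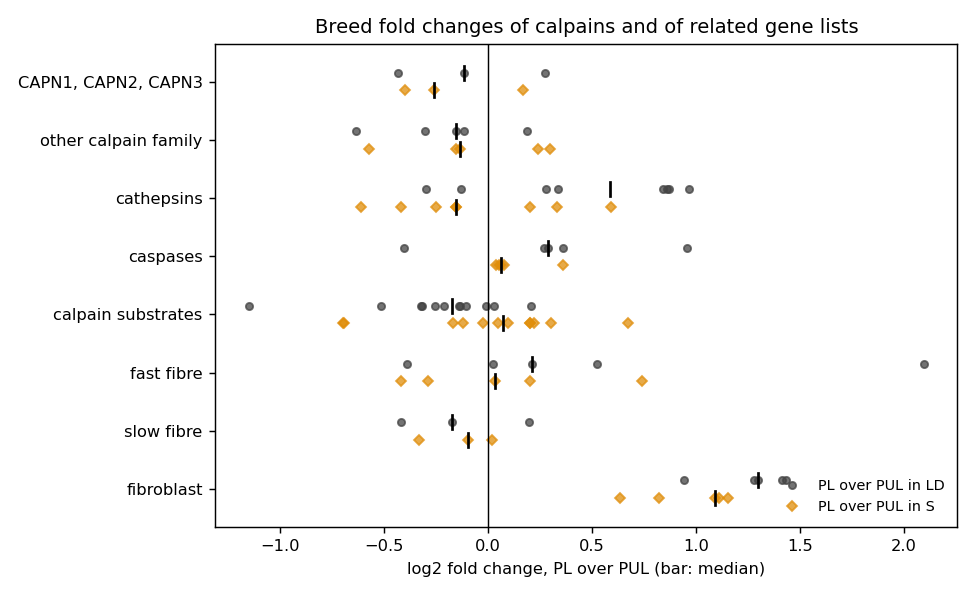
Log2 fold change of PL over PUL (horizontal axis) for each tested gene of 8 lists, with circles for LD, diamonds for S and a short bar at the median. The 3 calpains lie between -0.43 and 0.28, their substrates between -1.15 and 0.67, and the 5 fibroblast markers between 0.64 and 1.43.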

How the data were processed

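The authors trimmed adapters and short or poor reads, mapped single reads with Bowtie 2 to Sscrofa10.2, and estimated abundance with RSEM. The authors deposited unnormalized expected counts, 1 table for genes and 1 for isoforms, and 14.8% of the gene values were not whole. RSEM divides reads that match several transcripts, so isoform counts are less certain than gene counts.

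Here the expected counts were rounded and tested with edgeR 4.0.16 in R 4.3.3 (quasi-likelihood test, TMM factors, filterByExpr, Benjamini-Hochberg adjustment over all genes or isoforms). Breeds were compared within each muscle over 16 libraries, and muscles and the interaction over 32 libraries with the pig as a block. The pig is the same animal in LD and S, and 11 of 16 pairs had deviations correlated above 0.1 (median 0.20). Standard errors came from the F statistic. Ratios and isoform shares were compared by two-sided exact permutation tests over pigs (scipy 1.17.1). The edgeR tests were first tested on simulated data with known fold changes. They recovered between 46% and 55% of 2-fold changes in the breed and muscle comparisons and 17% for the interaction. False calls were 3 of 137 for breed in LD, 11 of 158 for breed in S, 2 of 142 for muscle in PUL, 2 of 136 for muscle in PL and 4 of 84 for the interaction. Changes of less than 2-fold, the size of the calpain values, were not simulated. A gene passed at an adjusted p of at most 0.05 and a fold of at least 1.3. These limits are those of the study, which further required a significant result from 2 of its methods, a requirement not applied here. Symbols were paired with 11804 gene IDs. Isoforms were assigned to a gene where their counts equalled or summed to its counts in every library, not from an annotation. Libraries within a group all differed by more than sampling noise (lowest chi-square per degree of freedom 32.0).

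The genes and the 15 gene lists were chosen with earlier results of these data known. The text names the calpains and CAST, their isoforms with a mean share of at least 10%, up to 4 genes of each family, substrate and protease list with the highest mean level and any gene that passed, and the 3 genes most like each calpain, and CAPN15 and the calpains with few counts beside these. Also named are ALB, APOA1, ANKRD1, the red blood cell markers with an ID and, as genes the study reported, PVALB, CTSD and CST6. Alternatives were DESeq2 1.42.0, RLE factors, omission of the filter, a minimum of 10 counts in every library, the replicate number or no pig as a block, leaving out each pig, and leaving out PUL pigs 1 to 5. Library size alone and the ratios between calpains were added after the data were examined. Precision rests on the SD among 8 pigs and on standard errors.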

Additional observations from a re-analysis of the deposited data

Results flagged for a closer look

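CAPN1, CAPN2, CAPN3 and the share of ENSSSCT00000005221 were examined in the 4 groups of 8 pigs, 16 groups in all. Of these, 2 held a library far from the others, where chance gives about 1 in 20. CAPNS1 was not examined in this way. CAPN1 in S of PL pig 14 was 153.5 CPM and the nearest library of the group 75.2 CPM, a gap of 0.810 of the whole range against a limit of 0.526. CAPN2 in LD of PUL pig 17 was 96.96 CPM and the nearest library 79.1 CPM, a gap of 0.571 of the range. Without that pig, the log2 fold change of CAPN2 in LD was 0.34 in place of 0.28 (adjusted p = 0.526 by edgeR). The cause was not tested for either library.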

How the results depend on the processing

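The breed directions of CAPN1, CAPN2 and CAPN3 held in both muscles under the 7 settings other than leaving out 1 pig, and no setting gave a call of any of them in any comparison. The planned ratios to CAST were not run, and ENSSSCT00000005224 could not be fitted with at least 10 counts in every library. Each calpain gene had at least 610 counts in every library, while ENSSSCT00000005224 had 0 counts in 2 libraries. The replicate number, which PUL and PL pigs share in the labels, joins different and unrelated pigs and so is not a pairing by design. The deviations of same-numbered pigs correlated from -0.31 to 0.55 (median 0.14), above 0.1 in 8 of 16 pairs. Those of LD and S of the same pig ran from -0.52 to 0.69 (median 0.20), above 0.1 in 11 of 16. These correlations alone do not set the 2 kinds of pair apart. With this replicate block, CAPN3 was -0.46 in LD and -0.39 in S and CAPN2 0.26 and 0.17. The adjusted p of the CAPN3:CAPN2 ratio was then 0.0781 in LD and 0.195 in S (exact permutation of signs). The block applies to the breed comparisons alone, so the adjustment ran over fewer tests than in the main analysis. Signs of 8 such pairs can give no p under 0.00781, which leaves a single ratio little room to pass after adjustment. These adjusted values therefore cannot tell whether the ratio differed with this block.

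Genes called numbered 0, 0, 3, 0 and 0 (breed in LD, breed in S, muscle in PUL, muscle in PL, interaction) and isoforms 0 in each. DESeq2 called 19, 103, 79, 4 and 1 genes and 20, 76, 73, 3 and 1 isoforms. No filter gave 4, 4 and 8 genes and 1, 3 and 1 isoforms in the former 3 comparisons. RLE factors gave 1 gene for breed in S. For muscle in PUL, at least 10 counts gave 0 genes, library size alone 6 genes and 1 isoform, and no replicate block 10 genes and 7 isoforms. Without PUL pigs 1 to 5, the counts were 1, 1 and 0 genes and 2 and 1 isoforms. Leaving out each pig gave 0 to 1 genes and 0 to 1 isoforms for breed in LD and for breed in S. The count of genes was 1 in LD without PUL pig 5 or 16 or PL pig 12, 14 or 15 and in S without PUL pig 3 or PL pig 14, and the count of isoforms was 1 in LD without PUL pig 5 or PL pig 14 and in S without PUL pig 3. For muscle in PUL it gave 0 to 21 genes and 0 to 18 isoforms, and for muscle in PL 0 to 6 genes and 0 to 4 isoforms, the highest each time without PL pig 14. For muscle in PUL every omission moved the count of genes, to 21 without PL pig 14, to 5 without PL pig 8 and to 0 or 1 without any other pig.

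The following values changed sign. With library size alone, CAPN1 was -0.045 for muscle in PUL, 0.0092 for muscle in PL and 0.054 for the interaction, CAPN2 was 0.14 for the interaction, and for muscle in PL CAPN3 was 0.035 and ENSSSCT00000005221 was 0.029. Without the pig block, ENSSSCT00000005224 was -0.026 for muscle in PL. Without PUL pigs 1 to 5, ENSSSCT00000005221 was 0.12 for breed in LD, 0.17 for breed in S, 0.32 for muscle in PUL and -0.45 for the interaction, and ENSSSCT00000005224 was 0.050 for the interaction. The share of ENSSSCT00000005221 then differed by 20.02 points for breed in LD, 3.22 for muscle in PUL and -3.26 for the interaction. The ratio CAPN1:CAPN2 was 0.070 for muscle in PUL, CAPN3:CAPN1 was 0.20 for breed in S, and CAPN1:CAPNS1 was 0.19 for muscle in PUL and -0.10 for the interaction. The cause was not tested.

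Leaving out each pig gave these ranges. CAPN1 ran from -0.23 to 0.027 for breed in LD, above 0 without PUL pig 3, from -0.47 to -0.16 for breed in S and from -0.0023 to 0.27 for muscle in PUL, below 0 without PUL pig 4. CAPN2 ran from 0.19 to 0.34 for breed in LD and from 0.12 to 0.22 for breed in S. It ran from -0.020 to 0.15 for muscle in PL, below 0 without PL pig 10, and from -0.16 to 0.018 for the interaction, above 0 without PL pig 7. CAPN3 ran from -0.53 to -0.32 for breed in LD and from -0.48 to -0.31 for breed in S. It ran from -0.27 to 0.065 for muscle in PL, above 0 without PL pig 7 or 12, and from -0.13 to 0.21 for the interaction, below 0 without PUL pig 5, PL pig 10 or PL pig 14. ENSSSCT00000005221 ran from -0.40 to 0.11 for muscle in PL and from -0.21 to 0.30 for the interaction. ENSSSCT00000005224 ran from -0.49 to 0.0087 for breed in LD, from -0.38 to 0.70 for muscle in PL and from -1.08 to 0.0036 for the interaction. The share ran from -7.78 to 4.54 points for breed in LD and from -8.12 to 4.17 for muscle in PL. CAPN1:CAPN2 ran from -0.13 to 0.077 for muscle in PUL and from -0.27 to 0.051 for the interaction, and CAPN3:CAPN1 from -0.027 to 0.066 for muscle in PL. CAPN3:CAPN2 ran from -0.64 to -0.46 for breed in S, from -0.29 to 0.022 for muscle in PL and from -0.019 to 0.30 for the interaction. CAPN1:CAPNS1 ran from -0.37 to 0.031 for breed in S, from -0.20 to 0.087 for muscle in PUL, from -0.20 to 0.22 for muscle in PL and from -0.20 to 0.30 for the interaction, and CAPN2:CAPNS1 from -0.076 to 0.14 for muscle in PUL.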

Other observations

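Between the muscles of a pig, CAPN1 and CAPN3 differed in either direction. In PL pig 14, CAPN1 was 60.9 CPM in LD and 153.5 CPM in S, and CAPN3 was 367.3 and 900.6 CPM, the lowest of PL LD and the highest of PL S. In PUL pig 5, CAPN1 was 123.4 CPM in LD and 49.6 CPM in S, and CAPN3 was 1460 and 715.1 CPM. In PL pig 12, CAPN3 was 854.4 CPM in LD and 394.9 CPM in S, and in PL pig 7 it was 1049 and 559.4 CPM, while in PL pig 10 it was 427.1 and 735.8 CPM. CAPN1 and CAPN3 thus moved in the same direction in pigs 14 and 5. CAPN2 in PL pig 14 was 105.2 CPM in LD and 114.1 CPM in S.

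Of the fast fibre markers 5 of 11 and of the slow fibre markers 3 of 8 were tested, and none passed in any comparison. S over LD had a median log2 fold change of 0.25 in PUL and -0.09 in PL for the fast list, and of 0.51 and -0.20 for the slow list. PL over PUL had medians of 0.21 in LD and 0.03 in S for the fast list and of -0.17 and -0.10 for the slow list. The fast list was split: it ran from -0.39 to 2.09 in LD, with 4 of 5 above 0, and from -0.42 to 0.74 in S, with 3 of 5. The highest each time was PVALB, which the study reported as higher in PL in LD. It did not pass here (fold 4.27, adjusted p = 0.481 in LD by edgeR's quasi-likelihood test). This fold is close to the study's own edgeR fold for PVALB in LD. The study found PVALB significant by each of its methods and its RNA-seq values correlated with qPCR. For S over LD, PVALB gave 1.59 in PUL and 0.47 in PL.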
